A study of Bos taurus with 18 samples.

Results

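Toll-like receptor sensing was followed through 4 genes in leukocyte RNA of cattle: the receptors TLR2 (ENSBTAG00000008008) and TLR4 (ENSBTAG00000006240), the co-receptor CD14 (ENSBTAG00000015032) and the adaptor MYD88 (ENSBTAG00000000563). They were picked as a textbook set by identifier, under a rule that uses no measured value though earlier results of these data were known, and are 4 of the 30162 features in the deposited count table. All 4 passed the filter on low counts, as did 14446 features in all. The table carries Ensembl identifiers without gene names, and the reference table used here matched 0 of its 27607 identifiers, so the pairing of these 4 identifiers with their symbols was taken as given and could not be checked against the files.

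Blood leukocytes came from 18 healthy females, all labelled as under heat stress: 6 Red Angus (a Bos taurus beef breed), 6 Droughtmaster (a composite breed for the tropics with Bos indicus in its ancestry) and 6 F1 hybrids of Red Angus and Droughtmaster. No animal outside heat stress was analysed here, so the comparisons set breeds against each other and no effect of heat can be read from them. The labels name each animal separately and give no age, batch or parentage. The white cell layer is a mixture of cell types, and marker genes of those types could not be looked up without gene names. More cells of a type and more RNA per cell therefore cannot be told apart in any result here.

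Toll-like receptors are membrane proteins of innate immune cells that recognise conserved microbial molecules. TLR2 pairs with other receptors of its family to bind bacterial lipoproteins, while TLR4 responds to lipopolysaccharide of Gram-negative bacteria, which CD14 hands to it. MYD88 couples both receptors, and the interleukin-1 receptor family, to kinases that activate NF-kappa-B. In blood these genes are best known from monocytes and neutrophils, and CD14 is a standard surface marker of monocytes.

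Libraries held 11639027 to 24117615 counts. Droughtmaster replicate 3 stood apart, because a single feature took 44.58% of its counts. Red Angus replicates 2 and 4 and F1 replicate 2 had the fewest features with counts (15507 to 15855, against 16924 to 19605 in the others). Depth was ample for these genes, with 178 to 1096 counts per library for TLR2, 130 to 3484 for TLR4, 360 to 5266 for CD14 and 1645 to 6029 for MYD88. Levels are given as CPM, the counts of a gene scaled to the TMM-adjusted size of its library. They are not divided by gene length, so levels were compared between animals and never between genes.

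TLR4 was the member that separated Droughtmaster from both other groups. Its level lay between 41.4 and 214 CPM in Droughtmaster (median 76.1), between 11.5 and 30.7 CPM in Red Angus (median 19.6) and between 9.41 and 33.0 CPM in the F1 (median 22.9). All 6 Droughtmaster libraries were above all 12 others, whereas Red Angus and the F1 covered nearly the same range. Of the 14446 features tested, 41 (0.284%) had this pattern. The mean was 100.4 ± 68.3 CPM for Droughtmaster, 19.7 ± 6.83 CPM for Red Angus and 21.7 ± 8.11 CPM for the hybrids (SD, n = 6 each).

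**Figure D1:**
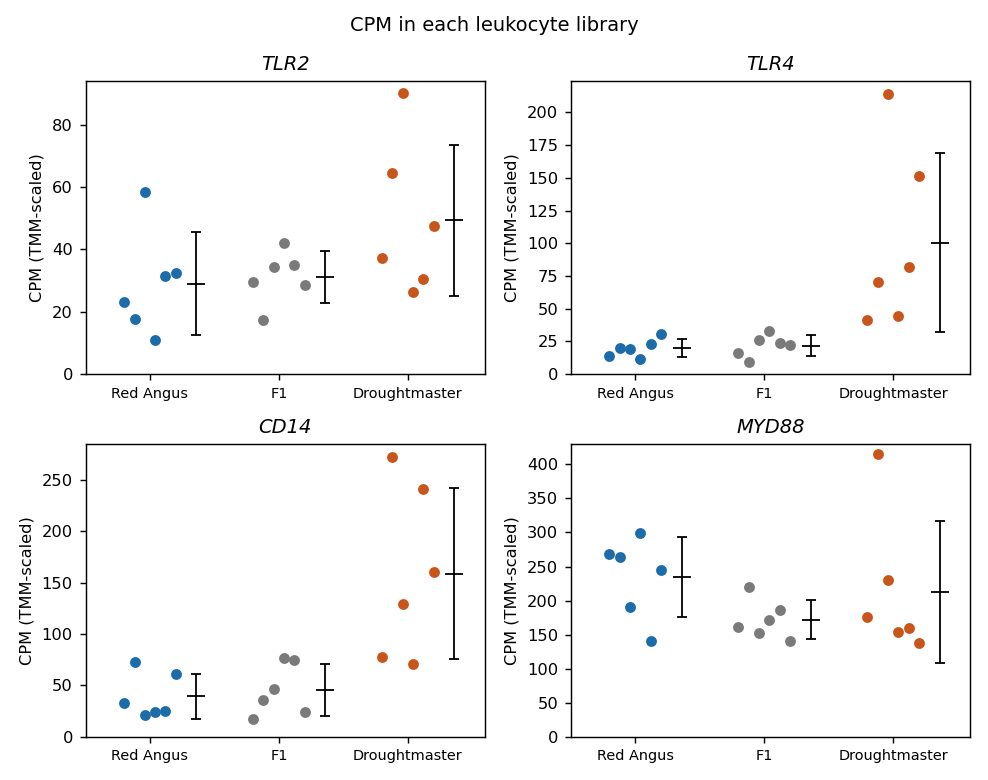
Each point is the TMM-scaled CPM of a gene in 1 leukocyte library, by breed, with the mean and SD (n = 6) beside it and a linear axis from 0. The 6 Droughtmaster libraries lie above all others for TLR4 (41.4 to 214 CPM), overlap little for CD14, and overlap widely for TLR2 and MYD88.

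TLR4 was 5.09-fold higher in Droughtmaster than in Red Angus (log2 fold change 2.35 ± 0.40, SE; edgeR's quasi-likelihood test, adjusted p = 0.00667). By p it ranked 21 of 14446, and by size 203 among features that leaned towards Droughtmaster. In this comparison 2.6% of features passed an adjusted p under 0.05, and 1.5% passed and were higher in Droughtmaster. The comparison of the F1 with Droughtmaster uses the same Droughtmaster libraries and is no independent repeat. There TLR4 was 4.62-fold lower in the F1 (log2 fold change -2.21 ± 0.40, adjusted p = 0.00973), where 1.18% of features passed and 0.879% passed and were lower in the F1. The 2 groups did not overlap, with the F1 lower, for TLR4 and for 1.2% of all features.

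The TLR4 difference from Red Angus passed without each of the 18 animals in turn, with log2 fold changes of 2.05 to 2.52 and adjusted p of 0.00326 to 0.0232, and so did that of the F1 from Droughtmaster (adjusted p of 0.00526 to 0.0364). Without all 4 libraries that stood apart the log2 fold changes were smaller, at 1.94 and -1.73 (adjusted p = 0.0496 and 0.0416 by edgeR). Droughtmaster replicates 3 and 6 were the highest, at 214 and 151 CPM, and replicates 1 and 4 the lowest, at 41.4 and 44.3 CPM. The names of replicates 3 to 6 have 4 digits and all others have 3, a split whose origin the labels do not state. Against Red Angus, TLR4 was 6.36-fold higher in those 4 Droughtmaster animals (adjusted p = 0.00503) and 2.77-fold higher in the other 2 (adjusted p = 0.209).

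CD14 had the second difference. It lay between 71.1 and 272 CPM in Droughtmaster (median 145), between 21.5 and 72.6 CPM in Red Angus (median 29.0) and between 16.9 and 76.6 CPM in the F1 (median 41.1). The Droughtmaster range met the others only at its lower edge: 5 of 6 Droughtmaster libraries were above every Red Angus library. Between Red Angus and Droughtmaster, 0.817% of features were without overlap and higher in Droughtmaster, and CD14 was not among them. The mean was 158.7 ± 83.5 CPM for Droughtmaster, 39.5 ± 21.7 CPM for Red Angus and 45.8 ± 25.3 CPM for the hybrids (SD, n = 6 each).

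CD14 was 4.01-fold higher in Droughtmaster than in Red Angus (log2 fold change 2.01 ± 0.44, adjusted p = 0.0217 by edgeR's quasi-likelihood test) and 3.46-fold lower in the F1 than in Droughtmaster (-1.79 ± 0.44, adjusted p = 0.0481). Over the other fits the log2 fold change against Red Angus ran from 1.81 to 2.32, and the call changed. With only the groups compared in the fit, the adjusted p was 0.051 against Red Angus and 0.0551 for the F1 against Droughtmaster. Without Red Angus replicate 3 the first was 0.0524, and without the 4 libraries that stood apart 0.0578. The second passed in 6 of 18 fits that left out an animal, with adjusted p from 0.0286 to 0.114 and log2 fold changes from -2.0 to -1.58.

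TLR2 leaned the same way and did not pass. Its levels ran from 26.4 to 90.1 CPM in Droughtmaster (median 42.4), from 10.9 to 58.5 CPM in Red Angus (median 27.4) and from 17.3 to 42.2 CPM in the F1 (median 32.0). The 3 groups overlapped, and 2 of 6 Droughtmaster libraries, replicates 2 and 3, exceeded every Red Angus library. The log2 fold change from Red Angus to Droughtmaster was 0.76 (95% interval 0.0072 to 1.52, unadjusted; adjusted p = 0.249 by edgeR), and 19.8% of all features had an unadjusted p under 0.05 in this comparison. From Droughtmaster to the F1 it was -0.66 (-1.41 to 0.096; adjusted p = 0.442). Without the 4 libraries that stood apart these became 0.28 (adjusted p = 0.733) and -0.32 (adjusted p = 0.682). In the RefSeq annotation of assembly ARS-UCD2.0 the TLR2 gene overlaps RNF175, and strand-aware counting is not stated in the labels, so the counts of TLR2 and of that neighbour may not be fully separate. No annotated gene overlaps TLR4, CD14 or MYD88 there.

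MYD88 did not follow the receptors. It lay between 138 and 415 CPM in Droughtmaster (median 167), between 140.0 and 299 CPM in Red Angus (median 254) and between 140.4 and 220 CPM in the F1 (median 167). All 3 groups overlapped from about the same lower end, and the highest value belonged to Droughtmaster replicate 2. The log2 difference of Droughtmaster from Red Angus was -0.14 (95% interval -0.70 to 0.41; adjusted p = 0.8 by edgeR), so the interval holds neither the TLR4 nor the CD14 estimate. The F1 stood at -0.45 against Red Angus (-1 to 0.11; adjusted p = 1) and at -0.30 against Droughtmaster (-0.86 to 0.26; adjusted p = 0.699).

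**Figure D2:**
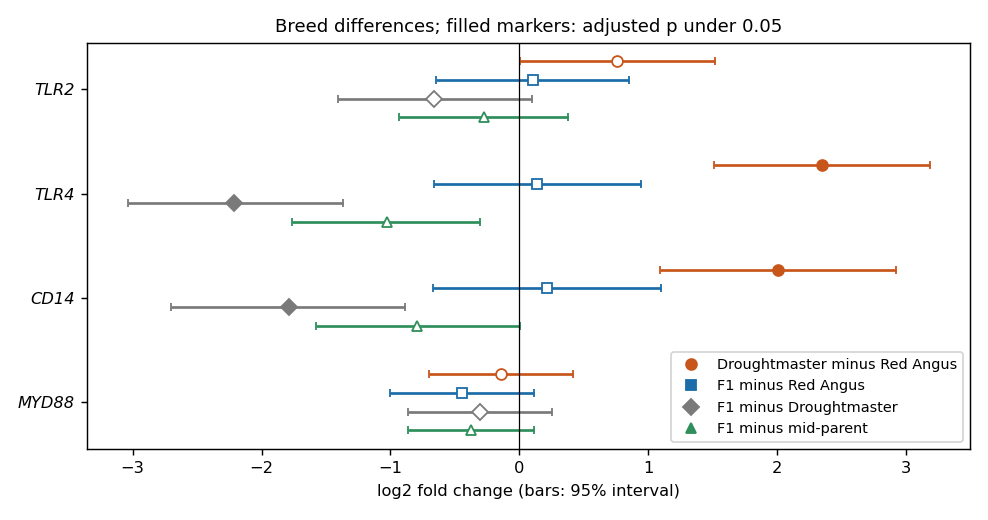
Points are log2 fold changes of the 4 genes in each breed comparison, with 95% intervals from edgeR's fit over all 18 libraries, and filled markers passed an adjusted p under 0.05. TLR4 (2.35 and -2.21) and CD14 (2.01 and -1.79) passed in the 2 comparisons with Droughtmaster, and no gene passed for the F1 against Red Angus or the mid-parent value.

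The F1 was not told apart from Red Angus at any of the 4 genes. Log2 fold changes of the F1 from Red Angus were 0.10 for TLR2 (95% interval -0.65 to 0.86), 0.14 for TLR4 (-0.66 to 0.94) and 0.21 for CD14 (-0.67 to 1.10). These intervals leave room for differences of moderate size, and edgeR called 0 of 14446 features here (0%). An unadjusted p under 0.05 was found for 466 features (3.23%), and DESeq2's Wald test called 1. The mid-parent value is the average of both parental log2 levels. The log2 difference of the F1 from it was -1.03 ± 0.35 for TLR4 (95% interval -1.76 to -0.31, unadjusted p = 0.00752, rank 182 of 14446, adjusted p = 0.593) and -0.79 ± 0.38 for CD14 (adjusted p = 0.836). Neither passed, nor did any other feature by edgeR's test. At an unadjusted p under 0.05 there were 863 features (5.97%, a share close to that threshold), TLR4 among them. DESeq2's Wald test called 57.

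Within breeds, the animals spread differently from gene to gene. The SD of log2 CPM for TLR4 was 0.51 for Red Angus, 0.63 for the F1 and 0.95 for Droughtmaster, where 81.5% of all features had a smaller SD. CD14 was the most even in its spread, with SDs of 0.74, 0.87 and 0.81 in the same order. MYD88 had an SD of 0.41 in Red Angus and 0.23 in the F1, narrower than most features (14.3% and 5.57% of them were smaller), and of 0.59 in Droughtmaster. The median feature had an SD of 0.74 (Red Angus), 0.55 (F1) and 0.59 (Droughtmaster). These shares and medians are over features of every level, and the members were not set against features of like level.

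Ratios of 2 genes within a library do not depend on how libraries were scaled, and they tested whether the members moved unequally. The log2 ratio of TLR4 to MYD88 averaged -1.23 ± 1.10 in Droughtmaster and -3.59 ± 0.79 in Red Angus (SD, n = 6 each). Every Droughtmaster library exceeded every Red Angus library (6 of 6; difference 2.36, exact two-sided permutation test p = 0.00216, the smallest that 6 against 6 can give; adjusted p = 0.013 over 18 ratio tests). For CD14 to MYD88 the difference was 2.20, again with 6 of 6 libraries apart (exact permutation p = 0.00216, adjusted p = 0.013). The level of TLR4 alone already separated these groups, so its ratio to MYD88 is no independent result. The share of all features whose ratio to a member separates 2 breeds was not computed. Both ratios were also lower in the F1 than in Droughtmaster, by -1.84 and -1.61 on the log2 scale (exact permutation p = 0.00649 and 0.00433, adjusted p = 0.0195 for both). The TLR4 to MYD88 difference between the F1 and Droughtmaster did not pass without F1 replicate 2 (-1.54, adjusted p = 0.0557).

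TLR4 also differed more than TLR2. The log2 ratio of TLR2 to TLR4 was 0.44 ± 0.67 for Red Angus, 0.57 ± 0.24 for the hybrids and -0.89 ± 0.66 for Droughtmaster (SD, n = 6 each). The ratio was lower in Droughtmaster than in Red Angus (log2 difference -1.33, exact permutation p = 0.00649, adjusted p = 0.0195), and 4 of 6 Droughtmaster animals fell under the whole Red Angus range. Without Red Angus replicate 3, which had the highest TLR2 of its group, the difference was -1.10 (adjusted p = 0.0519). In the F1 the ratio was above that of every Droughtmaster library in 6 of 6 animals (difference 1.46, exact permutation p = 0.00216, adjusted p = 0.013). The level of TLR4 alone also separated the F1 from Droughtmaster. TLR4 and CD14, in contrast, kept a ratio that was not told apart between Droughtmaster and Red Angus (log2 -0.74 ± 0.98 and -0.91 ± 0.67, SD, n = 6 each; difference 0.16, exact permutation p = 0.74), and this small difference turned to -0.03 without Red Angus replicate 2 and to -0.13 without Droughtmaster replicate 3. Of the 18 ratio tests, 6 had an adjusted p under 0.05, all of them named here.

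**Figure D3:**
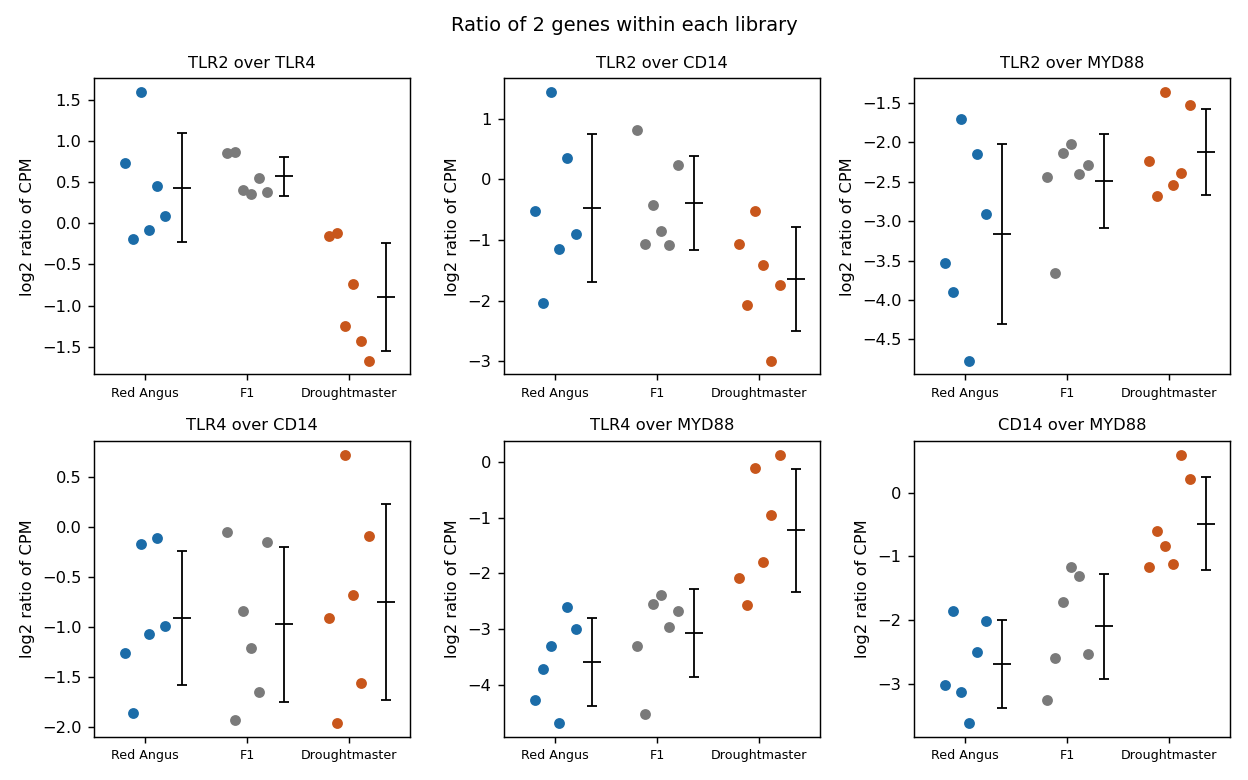
Each point is the log2 ratio of the CPM of 2 genes in 1 library, by breed, with the mean and SD (n = 6) beside it. Ratios of TLR4 and CD14 to MYD88 separate all 6 Droughtmaster libraries from Red Angus, and the TLR4 to CD14 ratio overlaps in all 3 groups.

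Across animals, TLR2 and TLR4 varied together. Over 18 animals Pearson's r of log2 CPM was 0.724 (permutation p = 0.00068, adjusted p = 0.00204 over 6 pairs) and Spearman's rho 0.678 (permutation p = 0.00249, adjusted p = 0.00747). With the breed mean removed from each value, r was 0.678 (permutation within breeds p = 0.0025, adjusted p = 0.015), and within breeds it was 0.597 (Red Angus), 0.965 (F1) and 0.718 (Droughtmaster), with exact permutation p of 0.199, 0.00556 and 0.124 (n = 6 each; the smallest adjusted p over 18 within-breed tests was 0.1). Without the 2 animals farthest from the TLR2 median, Droughtmaster replicate 3 and Red Angus replicate 4, the pooled r was 0.558 (permutation p = 0.0254, adjusted p = 0.0763). Without the 4 libraries that stood apart it was 0.41 (adjusted p = 0.315). Leaving out 1 animal at a time it passed in 18 of 18 sets, with r from 0.615 to 0.811 and adjusted p of at most 0.0269. The animals in the 2 sets above that lost the call are libraries that stood apart in composition or in detected features. Both genes also moved with the first principal component of all features, which held 32.6% of the variance (r = 0.706 for TLR2 and 0.649 for TLR4, as a description), and its part in their co-variation was not tested. In breed-centred values 2.16% of 14445 features correlated more strongly with TLR2 than TLR4 did, and the median feature had r = 0.0733.

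TLR4 and CD14 had the highest pooled correlation, and most of it lay between breeds. Pooled r was 0.796 and rho 0.833 (permutation p = 6e-05 for each, adjusted p = 0.00036), and it was 0.827 without Droughtmaster replicates 3 and 6, the 2 animals farthest from the TLR4 median. After removing breed means, r was 0.434 and rho 0.453 (permutation within breeds p = 0.0962 and 0.0822, adjusted p = 0.237 and 0.247). In these breed-centred values 19.3% of 14445 features correlated more strongly with TLR4 than CD14 did. For CD14, 5.58% of features correlated with it more strongly than TLR4 did. Within Red Angus, the F1 and Droughtmaster r was 0.474, 0.51 and 0.391 (n = 6 each; exact permutation p = 0.34, 0.306 and 0.41). In Droughtmaster the highest CD14 belonged to replicate 2 and the highest TLR4 to replicate 3, so the animals did not hold the same order.

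The other pairs did not pass. For TLR2 and CD14, r was 0.455 (permutation p = 0.0569, adjusted p = 0.114) and rho 0.507 (permutation p = 0.0329, adjusted p = 0.0658). With the breed means removed r was 0.151, while without Red Angus replicate 3 the pooled r was 0.594 (permutation test, adjusted p = 0.0232). For MYD88, pooled r was -0.087 with TLR2, -0.11 with TLR4 and 0.205 with CD14 (permutation p = 0.731, 0.665 and 0.415), with rho of -0.108, -0.282 and 0.0361. With TLR2, r within breeds was -0.661 for Red Angus, -0.535 for the F1 and 0.626 for Droughtmaster (n = 6 each). None of these passed (exact permutation p = 0.168, 0.271 and 0.182). Spearman's rho was -0.771, 0.0286 and 0.6 in the same order, so the F1 sign depended on the measure. Whether the breeds differ was not tested.

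**Figure D4:**
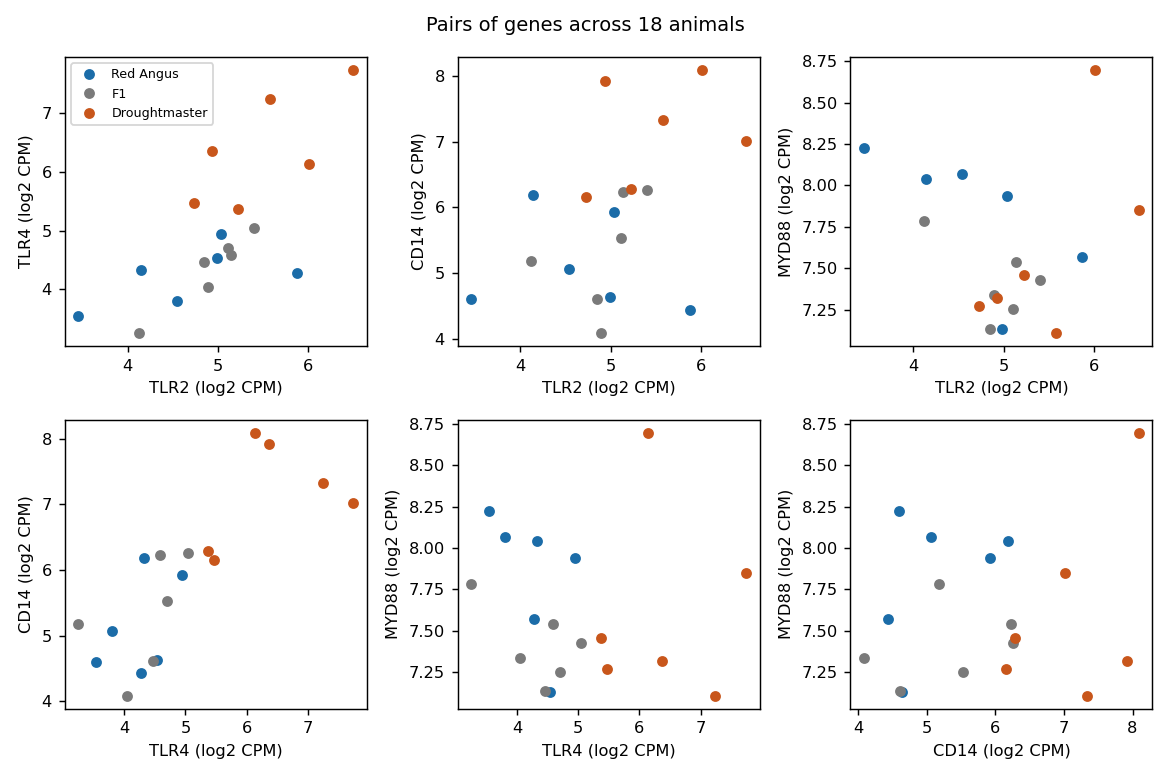
Each panel plots the log2 CPM of 2 genes against each other, 1 point per animal, coloured by breed (n = 18). TLR4 and CD14 rise together mainly from Red Angus and the F1 to Droughtmaster (pooled r 0.796, breed-centred 0.434). For TLR2 and TLR4 the breed-centred r was 0.678, though no breed passed alone. Their pooled r was 0.41 without the 4 libraries that stood apart. MYD88 shows no clear line with any of the other genes.

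Of the 8 relations between members and measures of the library, only that of MYD88 with detected features passed. The log2 CPM of MYD88 fell with the number of features that had counts, with r = -0.701 and rho = -0.81 over 18 animals (permutation p = 0.00108 and 6e-05, adjusted p = 0.00864 and 0.00048 over 8 relations). Within breeds r was -0.911 for Red Angus, -0.838 for the F1 and -0.561 for Droughtmaster (n = 6 each), and it was -0.724 without the 2 libraries farthest from the median number of features. Its pooled relation with library totals was weak (r = -0.0753, rho = 0.098, permutation p = 0.765 and 0.698). Within breeds that r was 0.419 for Red Angus, -0.156 for the F1 and -0.814 for Droughtmaster (n = 6 each). With library totals r was -0.475 for TLR2, -0.315 for TLR4 and -0.323 for CD14 (permutation p = 0.0462, 0.204 and 0.194). None of these 3 passed (adjusted p = 0.123, 0.272 and 0.272). For TLR2 and TLR4 the relation with detected features pointed the other way from that of MYD88 and did not pass (r = 0.48 and 0.408, rho = 0.368 and 0.335, permutation p = 0.0437 and 0.0893, adjusted p = 0.123 and 0.179). Within breeds r was 0.7, 0.852 and -0.265 for TLR2 and 0.548, 0.824 and 0.291 for TLR4 (Red Angus, F1 and Droughtmaster, n = 6 each). F1 replicate 2 had 15507 detected features, against 17800 to 18811 in the other F1 libraries. It also had the lowest TLR2 and TLR4 and the highest MYD88 of the F1 (17.3, 9.41 and 220 CPM). The r of all 3 genes within the F1 therefore leans on this library, and r without it was not computed. With the first principal component r was -0.669 for MYD88 and 0.205 for CD14. For CD14 and detected features r was 0.109 and rho 0.0114 (permutation p = 0.665 for r). Detected features ranged from 15790 to 19096 in Red Angus, 15507 to 18811 in the F1 and 17084 to 19605 in Droughtmaster, and their part in the ratios to MYD88 was not tested.

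**Figure D5:**
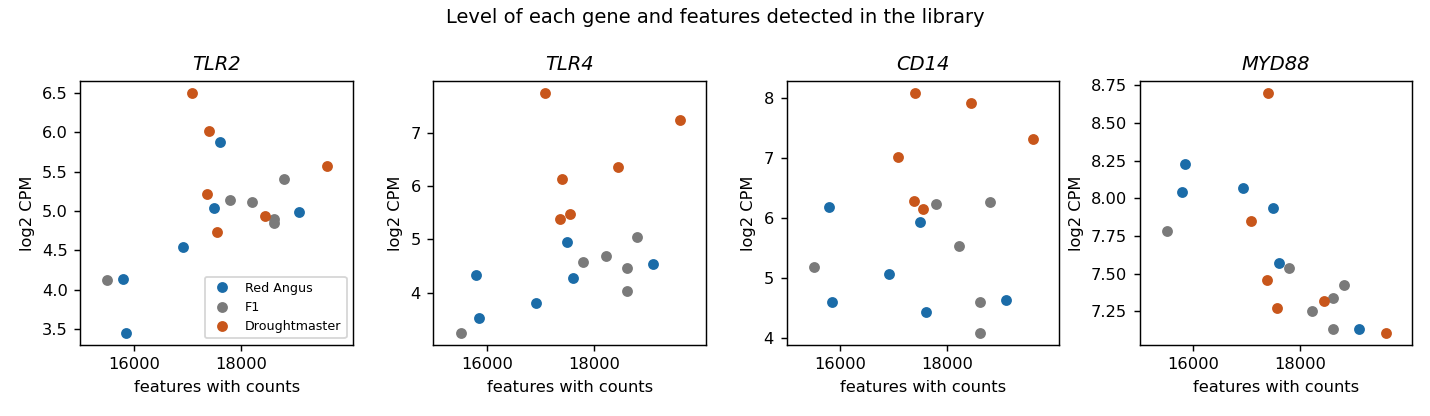
Log2 CPM of each gene is plotted against the number of features with counts in the library, 1 point per animal (n = 18). MYD88 declines from libraries with few detected features to those with many in all 3 breeds (r -0.911, -0.838 and -0.561), while the Droughtmaster points for TLR4 and CD14 lie high across their range. The F1 point farthest to the left is replicate 2 (15507 features), on which r within the F1 leans.

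The features most like each member were found by breed-centred correlation over 18 libraries, among 9673 other Ensembl identifiers that averaged 5 CPM or more, and are given as a description. They were ENSBTAG00000013118 for TLR4 (r = 0.882), ENSBTAG00000018252 for TLR2 (0.872), ENSBTAG00000014554 for CD14 (0.85) and ENSBTAG00000010662 for MYD88 (0.954). Their names are not paired in the files. None of the 4 members was the nearest feature of another. MYD88 had 15 features with r above 0.9, and the other 3 members had 0.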

How the data were processed

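The authors deposited raw read counts per gene for 18 leukocyte mRNA libraries. Genome build ARS-UCD1.2, featureCounts 1.5.0-p3, HISAT2 2.0.5 and DESeq2 1.16.1 are named, per the submitters' processing notes; strandedness and annotation release are not given in the sources used here. Each of the 18 columns carries the title of 1 sample, and every pair of libraries differed beyond sampling noise (chi-square per degree of freedom of 49.86 or more). Groups are the breeds in the labels, and replicates are numbered in accession order.

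Counts were tested with edgeR 4.0.16 (R 4.3.3): filterByExpr by group, TMM scaling, 1 fit over all 18 libraries, robust quasi-likelihood F test, two-sided, with Benjamini-Hochberg adjustment over 14446 features and a threshold of 0.05. Log2 CPM used a prior count of 2. Correlations used 100000 permutations, and ratios exact permutation. Alternatives were other scalings, no filter, DESeq2 1.42.0, fewer groups in the fit, a prior count of 0.5 and leaving out animals. Named beside the members are the features most correlated with each.

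The rule for the members uses no measured value, but members and settings were chosen with earlier results of these data known. A list of other pathway genes and lists of cell type markers were not tested, because 0 identifiers matched a symbol. No sequence is shown, since none was in the files used.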

Additional observations from a re-analysis of the deposited data

Results flagged for a closer look

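MYD88 in Droughtmaster replicate 2 measured 415 CPM, far from the other 5 animals of its breed, which lay between 138 and 231 CPM. The gap to the next animal was 0.664 of the breed's whole range in CPM, above the critical value of 0.625 for 6 samples. The check was made on CPM only. On the log2 scale used in the other tests this animal was at 8.70, the next at 7.85 and the lowest at 7.11. There the gap is a smaller part of the range, so the flag depends on the scale. Of 12 groups of 6 libraries checked (4 genes in 3 breeds), this was the only one with such an animal. Chance gives about 5% of groups where values are normally distributed, which was not tested for CPM. The same animal had the highest CD14 of all 18 (272 CPM) and the fewest total counts (11639027). Without it the log2 fold change of MYD88 between Droughtmaster and Red Angus was -0.42 (adjusted p = 0.284 by edgeR), against -0.14 with it.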

How the results depend on the processing

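TLR4 kept its direction and its call in both comparisons with Droughtmaster under the other scalings, without a filter, by DESeq2, with fewer groups in the fit and without each animal. It did not pass with only the 2 Droughtmaster animals with 3-digit names (1.47 against Red Angus, -1.3 for the F1 against Droughtmaster; log2 fold changes here and below). CD14 then stood at 2.13 and -1.88 and did not pass either. It also missed the threshold with only the groups compared in the fit (2.01 and -1.8), without the 4 libraries that stood apart, an alternative chosen after seeing the data (2.32 and -1.84), and, for the F1 against Droughtmaster, without scaling (-1.79) and with the 4-digit animals only (-1.72). Leaving out an animal gave CD14 1.81 to 2.27 and -2.0 to -1.58. Differences near 0 changed sign: MYD88 between the F1 and Droughtmaster (0.00884 with the 4-digit animals; -0.399 to 0.00185 leaving out an animal), MYD88 between the parents (0.312 with the 3-digit animals, 0.0889 without the 4 libraries), and TLR2 and TLR4 between the F1 and Red Angus (TLR2 -0.0479 without the 4 libraries; -0.0417 to 0.431 and -0.0164 to 0.32 leaving out an animal).

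Counts of called features moved far more than the members did. Between the parents 376 became 76 without scaling, 236 without a filter, 1037 by DESeq2, 56 with only the parents in the fit, 3 with the 3-digit animals, 57 without the 4 libraries, and 143 to 1407 leaving out an animal. For the F1 against Droughtmaster 171 became 64 without scaling, 622 by DESeq2, 53 with the 3-digit animals, 88 without the 4 libraries, and 65 to 335 leaving out an animal. DESeq2 called 1 feature for the F1 against Red Angus and 57 against the mid-parent value, where edgeR called 0. The cause was not tested.

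The TLR4 and CD14 correlation did not pass when breed-centred (0.434) or within Red Angus, the F1 and Droughtmaster (0.474, 0.51 and 0.391). That of TLR2 and TLR4 did not pass within them (0.597, 0.965 and 0.718), without the 2 farthest animals (0.558) or without the 4 libraries (0.41). Among pairs that did not pass, TLR2 and CD14 turned negative in Red Angus (-0.196) and ranged from 0.356 to 0.594 leaving out an animal. TLR2 and MYD88 turned positive in Droughtmaster (0.626), without scaling (0.0203), without the 2 farthest animals (0.0418) and without the 4 libraries (0.351), and ranged from -0.395 to 0.126. TLR4 and MYD88 turned positive in Droughtmaster (0.0346) and ranged from -0.326 to 0.0269, and CD14 and MYD88 turned negative without the 2 farthest animals (-0.187) and ranged from -0.11 to 0.325. For the log2 ratios, TLR4 to CD14 between the parents was -0.41 without the 4 libraries and -0.132 to 0.404 leaving out an animal. TLR4 to MYD88 for the F1 against Droughtmaster was -1.32 without the 4 libraries (not passing) and -2.1 to -1.54 leaving out an animal, and TLR2 to TLR4 between the parents -1.48 to -1.1. No paired analysis was made, because the labels name each animal separately and pair none of them.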
